A study of Arabidopsis thaliana with 18 samples.

Results

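Shoots of Arabidopsis thaliana (cv. Col-0) that spent 7 days without phosphate were compared with shoots kept at control phosphate, gene function by gene function. The members are 6 of the 18 arrays in the series, chosen by their labels: 3 arrays of P0 shoots (phosphorus absent, 0 mM) and 3 arrays of P1.25 shoots (1.25 mM, the control). All seedlings were wild type, had grown for 5 days in hydroponic sucrose medium before the transfer, and were separated into shoot and root for RNA. Per the study's methods the 3 replicates of a treatment came from independent experiments, and the number of plants behind each RNA is not given in the sources used here. The other 12 arrays hold root P0, root P1.25, root P20 (20 mM) and shoot P20, with 3 each. They entered the model as a shared measure of spread, and the root arrays served as the comparison for what differed in the shoot. Whole shoots mix leaf, stem and meristem cells, so fewer cells of a type and less RNA per cell cannot be told apart.

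Plants sense phosphate through SPX proteins, which bind inositol pyrophosphates and hold back PHR1-type transcription factors while phosphate is plentiful. When phosphate runs short, PHR1 drives genes for phosphate uptake, for phosphatases that free phosphate from organic compounds, and for enzymes that replace phospholipids with galactolipids and sulfolipids. Starved shoots are known for purple anthocyanin, stored starch and slowed leaf growth.

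Of 38408 transcripts, 5274 (13.7%) were called changed in P0 shoots, which means a Benjamini-Hochberg adjusted p under 0.1 in limma and more than 2-fold. Higher calls numbered 2349 (6.12%) and lower calls 2925 (7.62%). Values are RMA intensities on the log2 scale, so a difference of 1 is 2-fold, and levels of different genes are not set against each other. A rise beyond 16-fold was called for 84 transcripts and a fall beyond 16-fold for 4. The direction of the majority turned with the naming of transcripts. Among the 16722 transcripts to which the array platform's table gives 1 gene, 1001 (5.99%) were higher and 680 (4.07%) lower, so 59.5% of those calls were rises. Among transcripts without 1 gene name, 872 were higher and 1998 lower. The median difference over all transcripts was -0.10, and rises made up 44.5% of all calls, or 53.3% once each array was centred on its median.

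Gene functions were read from 36 lists. Of their 735 genes, 309 have a transcript here, 107 through the platform table and 202 only through the annotation columns of the study's own tables. Those tables hold transcripts chosen for change in these same samples, so a list made up of such names will show many calls, and its count is not independent evidence of direction. The count of platform-named members is therefore given beside most lists. Of the 107 platform-named list genes, 44.9% were called, against 10.05% of all platform-named transcripts. The lists themselves were chosen with earlier results of these data known, so the platform-named counts are not independent evidence either.

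**Figure D1:**
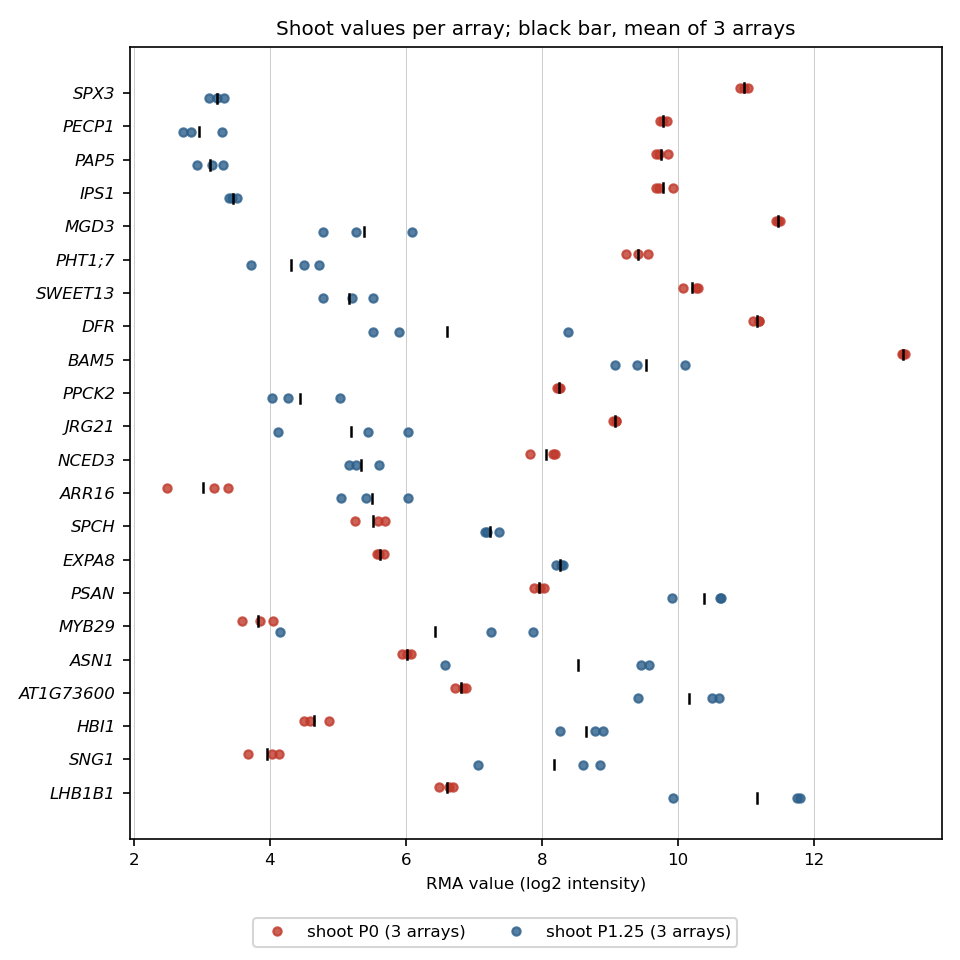
RMA value (log2 intensity, horizontal axis) of 22 genes on each of the 3 P0 (red, upper) and 3 P1.25 (blue, lower) shoot arrays, with black bars at the means. The P0 points lie close together for most genes (ARR16 is the widest), while the P1.25 points of DFR, MYB29, ASN1 and LHB1B1 are spread out, with MYB29 reaching down to 4.16 beside P0 values of up to 4.04.

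The phosphate starvation genes gave the largest rises. SPX3, an SPX-domain sensor gene, had 10.91, 11.02 and 10.96 in P0 shoots, against 3.22, 3.33 and 3.11 in P1.25 shoots. The groups lay far apart, and the difference of 7.74 ± 0.19 (SE, n = 3 each) equals 215-fold (adjusted p = 6.31e-12, limma). IPS1, a noncoding RNA that mimics the target of miR399, had 9.72, 9.67 and 9.93 in P0 shoots, against 3.45, 3.52 and 3.41 in P1.25 shoots, a rise of 6.31. All 10 sensing and signalling genes with a transcript were called higher, with a median of 2.57, and only 1 of the 10 is platform-named. The others included AT4 (5.14), a second RNA of the IPS1 type, SPX1 (3.55) and MYB62 (2.90), a transcription factor gene. WRKY45 (1.30) was called with all arrays, but without the third P1.25 array its adjusted p was 0.101.

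Phosphate transport genes with a transcript here, 11 of the 18 written, were all called higher. Their 10 study-named members come from tables of changed transcripts. The list had a median of 3.27 and 1 platform-named member, AT1G63010, at 1.00. PHT1;4, a plasma membrane phosphate transporter, had 9.29, 9.30 and 9.31 in P0 shoots, against 4.31, 4.48 and 4.06 in P1.25 shoots. These P0 arrays agreed within an SD of 0.01, and the rise was 5.01 ± 0.20. PHT1;7 rose by 5.09, PHT1;5 by 4.70 and PHT1;8 by 4.16, and PHF1, which helps PHT1 proteins leave the endoplasmic reticulum, rose by 2.297. The mitochondrial carrier gene PHT3;2 rose by 3.75.

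Genes of lipid exchange and of phosphate recovery followed. In the lipid list 12 of 13 members were called higher and 1 lower, with a median of 3.78. PECP1, a phosphatase gene acting on phosphoethanolamine and phosphocholine, had 9.78, 9.84 and 9.74 in P0 shoots, against 3.302, 2.73 and 2.84 in P1.25 shoots. No P1.25 array came near the P0 arrays, and the rise was 6.83. The related phosphatase gene PS2 rose by 6.305, the galactolipid synthase gene MGD3 by 6.08, the phospholipase C gene NPC4 by 5.32 and the phospholipase D gene PLDZ2 by 4.53. The exception was AT1G73600, the only platform-named member of the list. It had 6.84, 6.72 and 6.88 in P0 shoots, against 10.49, 10.60 and 9.41 in P1.25 shoots, a fall of 3.35 (adjusted p = 0.000133, limma).

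All 11 acid phosphatase and nuclease genes were called higher, with a median of 4.29 and 1 platform-named member, AT1G13750, at 2.31. PAP5, which encodes a purple acid phosphatase, had 9.68, 9.71 and 9.85 in P0 shoots, against 3.14, 2.92 and 3.31 in P1.25 shoots. The gap of 6.62 was many times the spread in either group. PAP24 rose by 5.54, PAP14 by 4.62 and RNS1, a secreted ribonuclease gene, by 5.37.

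The platform table also names strong rises outside the lists. AT1G23110, annotated as a hypothetical protein, had 9.77, 9.73 and 9.67 in P0 shoots, against 3.40, 3.52 and 3.58 in P1.25 shoots, a rise of 6.22. AT3G25240 rose by 6.09, AT2G45135 by 5.92 and AT5G20790 by 5.20, and none of these has a named function in the tables used. OCT1, an organic cation transporter gene, rose by 4.68, and AT5G09570, annotated as a Cox19-like CHCH protein, by 4.75. Of all transcripts, 45.2% had P0 and P1.25 arrays that did not overlap, which is the share to set beside these separated groups.

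**Figure D2:**
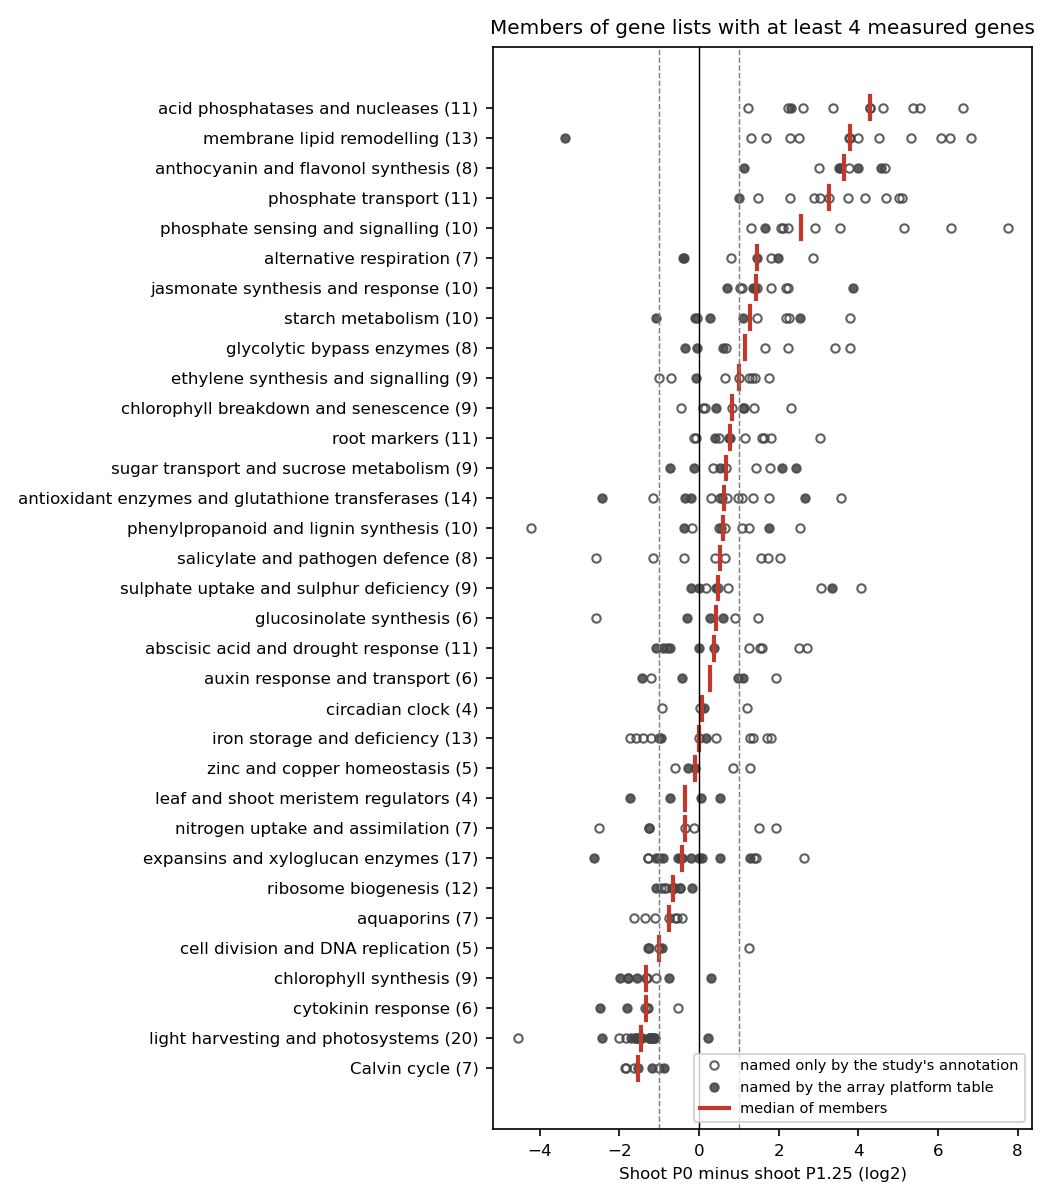
Difference of P0 minus P1.25 shoots (log2, horizontal axis) for the members of each list with at least 4 measured genes, ordered by the median (red bar), with the number of members in brackets. Filled points are platform-named genes and open points are named only by the study's annotation; the dashed lines mark 2-fold. Acid phosphatases and lipid remodelling stand at the top (medians 4.29 and 3.78), light harvesting and Calvin cycle at the bottom (-1.45 and -1.52).

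Genes of sucrose synthesis, most called starch genes and single sugar transporter genes were higher in P0 shoots. SWEET13, which encodes a sucrose exporter, was among the leading platform-named rises. It had 10.07, 10.29 and 10.26 in P0 shoots, against 5.21, 4.78 and 5.51 in P1.25 shoots. The difference of 5.04 ± 0.21 equals 32.9-fold (adjusted p = 7.88e-10, limma). In the list of sugar transport and sucrose metabolism, which does not hold SWEET13, 4 of 9 members were called higher and 0 lower, with 2 of 5 platform-named. SPS4F (2.45), SPS2F (1.79) and SPS1F (1.42) encode sucrose-phosphate synthases, and SWEET4 (2.09) a hexose transporter. The related transporter genes SWEET11 (-0.13), SWEET12 (0.35), SWEET15 (0.52) and SWEET17 (-0.72) were not called.

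Among 10 starch genes 6 were higher and 1 lower, with 2 and 1 of the 5 platform-named. BAM5, a beta-amylase gene, had 13.34, 13.30 and 13.29 in P0 shoots, against 10.11, 9.07 and 9.40 in P1.25 shoots. It rose by 3.78, and its P0 arrays lay far closer together (SD 0.03) than its P1.25 arrays (SD 0.53). APL3, a large subunit of ADP-glucose pyrophosphorylase, rose by 2.55, GBSS1, the granule-bound starch synthase gene, by 2.25 and GPT2, a glucose-6-phosphate translocator gene of plastids, by 2.17. The lower member was the platform-named DPE1 (-1.08), and the 5 platform-named members had a median of 0.28. SBE2.2 (0.28), BAM3 (-0.06) and AMY1 (-0.10) were not called.

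Steps that spare phosphate or adenylates in respiration were partly raised. PPCK2, a kinase gene that activates phosphoenolpyruvate carboxylase, had 8.27, 8.26 and 8.21 in P0 shoots, against 4.04, 4.26 and 5.04 in P1.25 shoots, and rose by 3.80. PPCK1 rose by 3.41, its substrate's gene PPC1 by 1.65, and UGP3, a UDP-glucose pyrophosphorylase gene of sulfolipid synthesis, by 2.23. The other 4 of 8 members of the glycolytic bypass list were not called, among them all 3 platform-named ones. In alternative respiration 4 of 7 members were higher, AOX1D (2.87), AOX1A (1.802) and the external NADH dehydrogenase genes NDB2 (1.98) and NDB4 (1.46), of which the NDB genes are platform-named.

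The anthocyanin genes with a transcript here, 8 of the 20 written, rose, and this list rests on the platform table more than most. All 8 were called higher, 5 of 5 platform-named, with medians of 3.65 and 3.53. The other steps of the pathway were not read. F3'H, which hydroxylates the flavonoid B ring, had 9.34, 9.38 and 9.32 in P0 shoots, against 5.33, 5.66 and 5.75 in P1.25 shoots. The rise of 3.77 ± 0.13 had an adjusted p of 1.6e-10 in limma. The entry enzyme gene CHS rose by 3.02, the anthocyanin acyltransferase gene 5MAT by 3.98 and GSTF12, needed for anthocyanin to reach the vacuole, by 4.67. DFR, dihydroflavonol reductase, had 11.10, 11.19 and 11.18 in P0 shoots, against 5.51, 5.90 and 8.38 in P1.25 shoots. The third P1.25 array stood well above the other two, and the rise was 4.56 with it and 5.45 without it.

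Sinapate metabolism moved in opposite directions in the phenylpropanoid list, where 4 of 10 members were higher and 1 lower, with 1 higher of the 3 platform-named. UGT84A2, whose enzyme makes sinapoylglucose, had 11.28, 11.31 and 11.35 in P0 shoots, against 8.84, 8.74 and 8.71 in P1.25 shoots, a rise of 2.55. SNG1, whose enzyme uses sinapoylglucose to form sinapoylmalate, had 4.13, 4.04 and 3.68 in P0 shoots, against 8.86, 8.60 and 7.06 in P1.25 shoots. It fell by 4.22 ± 0.45 (adjusted p = 1.08e-05, limma), among the largest falls of named genes.

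Of the 36 lists, light harvesting and photosystems held the most falls. In light harvesting and photosystems 19 of 20 members with a transcript were called lower and 0 higher, 8 of 9 platform-named, with medians of -1.45 and -1.48. LHB1B1, a light-harvesting protein gene of photosystem II, had 6.68, 6.49 and 6.63 in P0 shoots, against 11.75, 11.79 and 9.93 in P1.25 shoots. It fell by 4.55, or 23.5-fold, and the third P1.25 array lay closest to the P0 arrays without reaching them. PSAN, a photosystem I subunit gene named by the platform table, had 8.02, 7.88 and 7.97 in P0 shoots, against 10.61, 10.63 and 9.90 in P1.25 shoots, and fell by 2.42. LHCB4.3, a minor antenna gene, was the member not called (0.23, adjusted p = 0.479 in limma).

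In the Calvin cycle 5 of 7 members were lower, with 2 of 3 platform-named, among them the Rubisco small subunit genes RBCS2B (-1.85) and RBCS3B (-1.64) and the sedoheptulose bisphosphatase gene SBPASE (-1.52). Chlorophyll synthesis had 7 of 9 members lower, with 3 of 5 platform-named. CHLM, a magnesium protoporphyrin methyltransferase gene, had 6.33, 6.24 and 6.42 in P0 shoots, against 8.69, 8.33 and 7.91 in P1.25 shoots, a fall of 1.98. HEME1 (-1.79) and PORB (-1.56) encode other steps of the pathway. GUN4, which stimulates magnesium chelatase, had 4.80, 4.79 and 4.90 in P0 shoots, against 7.25, 7.23 and 5.38 in P1.25 shoots, and here too the third P1.25 array was the one nearest the P0 arrays.

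**Figure D3:**
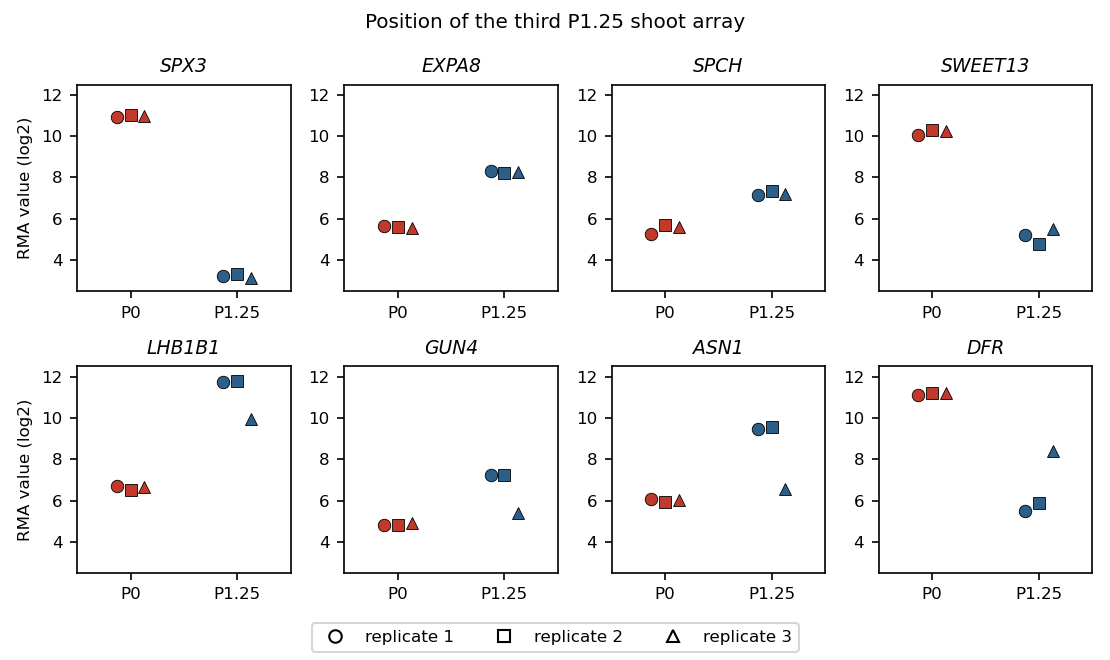
RMA value (log2, vertical axis, same range in all panels) of 8 genes in P0 (red, left) and P1.25 (blue, right) shoots, with a symbol for each replicate. The third P1.25 array (triangle) lies with the other 2 for SPX3, EXPA8, SPCH and SWEET13, and is displaced toward P0 for LHB1B1, GUN4, ASN1 and DFR.

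How much of a difference the replicates shared was itself uneven between functions. The third P1.25 shoot array held 44.7% of the squared deviation from its group mean, with identical rows counted once. The other P1.25 arrays held 26.6% and 28.7% and the P0 arrays 33.2% to 33.5% each. For each called member, the distance of the third P1.25 array from the mean of the other 2 was set against the distance of the P0 mean from it. The third array lay a median of 53.1% of the way to P0 for light harvesting, 54.3% for chlorophyll synthesis and 27.8% for the Calvin cycle. For phosphate transport the median was 4.4%, for phosphatases and nucleases 2.6%, for lipid remodelling 7.6%, for starch -8.7% and for cytokinin response -13.9%. Without that array the median difference was -1.83 in light harvesting and -1.67 in chlorophyll synthesis, the counts were again 19 and 7 lower, and the phosphate transport, phosphatase and lipid counts did not change. The third array also held the largest share in the shoot P20 (51.15%), root P1.25 (43.9%) and root P20 (47.7%) groups. What set it apart was not tested.

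Single genes show the same range. EXPA8, an expansin gene, had 5.67, 5.60 and 5.58 in P0 shoots, against 8.31, 8.20 and 8.27 in P1.25 shoots, so a fall of 2.64 stood beside SDs of 0.05 in both groups. At the other end MYB29, a regulator gene of aliphatic glucosinolates, had 4.04, 3.86 and 3.595 in P0 shoots, against 7.87, 7.25 and 4.16 in P1.25 shoots. The third P1.25 array lay 91.3% of the way to the P0 mean, and the fall was 2.59 with it (adjusted p = 0.0196, limma) and 3.73 without it. ASN1, an asparagine synthetase gene that is raised by darkness and low sugar, had 6.08, 5.95 and 6.02 in P0 shoots, against 9.46, 9.56 and 6.57 in P1.25 shoots. Its fall of 2.51 was called with all arrays (adjusted p = 0.0256) and was 3.49 without the third P1.25 array. Without the first or the second P1.25 array the call was lost (-2.05 and -1.997, adjusted p = 0.105 and 0.11).

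**Figure D4:**
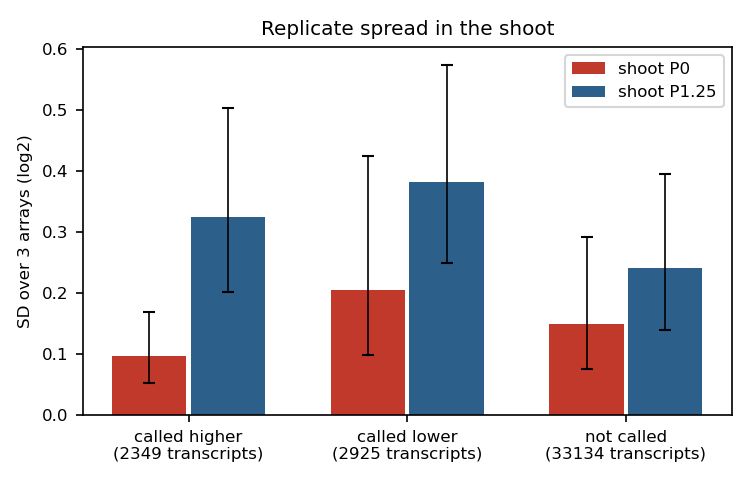
Median SD over 3 arrays (log2, bars, with quartiles as error bars) of transcripts called higher, called lower and not called, in P0 (red, left) and P1.25 (blue, right) shoots. P0 arrays were the tighter group in all 3 classes, with medians of 0.097 and 0.325 for called rises.

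P0 arrays were the closer replicates throughout. Over called rises the median SD was 0.097 in P0 and 0.325 in P1.25 shoots, and P0 had the smaller SD in 87.2% of them. Over called falls it was 0.204 in P0 and 0.382 in P1.25 shoots, with the smaller SD in P0 in 72.2%. Among transcripts not called, P0 had the smaller SD in 67.6%. The third P1.25 array was the control array nearest P0 in 55.3% of called rises and in 65.6% of called falls.

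Nitrogen, sulphur and metal genes changed member by member, and of the platform-named members 0 of 1 nitrogen, 1 of 4 sulphur and 0 of 2 iron genes were called. Among 7 nitrogen genes 2 were higher, the nitrate transporter genes NRT1.8 (1.93) and NRT1.7 (1.50), and 2 were lower, ASN1 and the plastid glutamine synthetase gene GS2 (-1.26). Of 9 sulphur genes 3 were higher and 0 lower. SULTR1;3, a sulphate transporter gene, had 8.12, 8.19 and 8.06 in P0 shoots, against 4.53, 3.597 and 4.05 in P1.25 shoots, a rise of 4.07. SULTR3;4 rose by 3.06 and the platform-named beta-glucosidase gene BGLU28 by 3.35, each with groups that did not overlap. In the iron list 4 of 13 members were higher and 4 lower. The ferritin gene FER1 (1.81), the vacuolar iron transporter-like gene VTL1 (1.71), the nicotianamine synthase gene NAS3 (1.35) and the metal-nicotianamine transporter gene YSL1 (1.29) were higher. NAS1 (-1.74), NAS4 (-1.59) and the ferric reductase gene FRO3 (-1.40) were lower, so nicotianamine synthases changed in both directions. VTL5 (-1.20, adjusted p = 0.0701) lost its call under 8 of 14 refits. NAS3 had 8.38, 8.32 and 8.42 in P0 shoots, against 7.05, 7.01 and 7.00 in P1.25 shoots, the least spread of all called genes described here (pooled SD 0.04).

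Hormone lists differed in direction. In cytokinin response 5 of 6 members were lower and 0 higher, 2 of 2 platform-named. ARR16, a type-A response regulator gene that cytokinin induces, had 3.18, 2.49 and 3.39 in P0 shoots, against 5.04, 5.42 and 6.03 in P1.25 shoots, a fall of 2.48 with no overlap. ARR15 (-1.801), ARR7 (-1.36) and ARR6 (-1.31) fell with it, and the third P1.25 array lay between -51.3% and 15.2% of the way to P0 in the 5 called genes. In jasmonate synthesis and response 9 of 10 members were higher, with 3 of 4 platform-named. JRG21, a dioxygenase gene raised by jasmonate, had 9.09, 9.04 and 9.09 in P0 shoots, against 6.03, 5.44 and 4.12 in P1.25 shoots, and rose by 3.88. The repressor genes JAZ5 (2.24) and JAZ1 (1.81) and the synthesis gene AOC3 (2.18) rose as well.

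NCED3, the gene for the limiting step of abscisic acid synthesis, had 8.17, 7.82 and 8.19 in P0 shoots, against 5.17, 5.26 and 5.60 in P1.25 shoots, a rise of 2.71. The proline synthesis gene P5CS1 rose by 2.52 and the phosphatase gene ABI2, which restrains abscisic acid signalling, by 1.59. The list as a whole had 5 of 11 members higher and 1 lower, and none of its 5 platform-named members was among the higher ones. The lower member, COR47 (-1.07), is platform-named, and the platform-named members had a median of -0.73. In ethylene synthesis and signalling 5 of 9 members were higher, including the ACC synthase genes ACS6 (1.76), ACS7 (1.40) and ACS2 (1.33), while the only platform-named member, EIN3, was at -0.08. Auxin genes were split, with 1 higher and 1 lower of 4 platform-named members. PGP4 (1.92), an auxin transporter gene, and GH3.5 (1.11), an auxin-conjugating enzyme gene, were higher, and the repressor genes IAA29 (-1.42) and IAA3 (-1.19) lower. GH3.5 was 0.88 without the second P1.25 array, below 2-fold. Of the salicylate and defence genes, none platform-named, 3 of 8 were higher and 1 lower. PAD3 of camalexin synthesis rose by 2.02. PR1 (-2.59, adjusted p = 0.0507 in limma) had 5.19, 5.15 and 5.28 in P0 shoots, against 7.41, 8.53 and 7.43 in P1.25 shoots, and lost its call without any single P0 array or the second P1.25 array (adjusted p of 0.1 to 0.155). Its call was also lost when only the 9 shoot arrays were fitted (adjusted p = 0.117, limma).

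Lists tied to growth had calls in both directions. SPCH, which starts the stomatal lineage, had 5.26, 5.69 and 5.59 in P0 shoots, against 7.16, 7.37 and 7.19 in P1.25 shoots. It fell by 1.72 ± 0.25, and the other leaf and meristem regulators with a transcript, CLV3 (0.06), YAB3 (-0.74) and FAMA (0.52), were not called. YAB3 and FAMA passed the p threshold (adjusted p = 0.0904 and 0.063, limma) but stayed under 2-fold. CLV3 averaged 2.34 in P0 and 2.28 in P1.25 shoots, close to its 2.12 and 2.17 in P0 and P1.25 roots. HBI1, a basic helix-loop-helix growth regulator gene, had 4.86, 4.60 and 4.50 in P0 shoots, against 8.89, 8.77 and 8.27 in P1.25 shoots, a fall of 3.99. Cell wall genes went both ways, 4 of 17 higher and 5 lower, with 1 higher and 2 lower of 10 platform-named. The xyloglucan enzyme genes XTH23 (2.63), XTH22 (1.43) and XTH24 (1.38) were higher, and EXPA8, XTH4 (-1.28) and EXPA1 (-1.28) lower. Of 12 ribosome biogenesis genes all had a lower mean in P0 shoots, with a median of -0.65 beside -0.10 over all transcripts, but only NOP5-1 (-1.08) passed the fold threshold, and it was -0.98 after median centring and -0.99 without the third P0 array. NOP5-1 is 1 of 5 platform-named members. Among 5 genes of cell division and DNA replication, of which 1 of 2 platform-named was lower, MCM7 (-1.27), PCNA1 (-1.24) and MCM5 (-1.01) were lower and the mitotic kinase gene CDKB2;2 (1.26) higher. PCNA1 had 5.05, 4.89 and 5.11 in P0 shoots, against 6.78, 6.96 and 5.04 in P1.25 shoots, so the third P1.25 array overlapped the P0 range. PCNA1 was -1.85 without that array and lost its call without the first (-0.98) or the second (-0.90) P1.25 array, as MCM5 did (-0.83 and -0.91). MCM5 was also below 2-fold without the first P0 array (-0.97), after median centring (-0.91) and after quantile normalization within tissue (-0.98). In the fit of the 6 shoot arrays alone PCNA1 lost its call too (adjusted p = 0.119, limma).

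Genes of protective enzymes moved both ways. The glutathione transferase genes GSTU24 (3.56) and GSTU25 (2.66) and the glutathione peroxidase gene GPX6 (1.77) were higher. TAPX, the thylakoid ascorbate peroxidase gene named by the platform table, had 6.37, 6.57 and 6.68 in P0 shoots, against 9.11, 9.30 and 8.49 in P1.25 shoots, a fall of 2.43. In all, 5 of 14 antioxidant genes were higher and 2 lower, with 1 and 1 of 5 platform-named. Aquaporin genes, none platform-named, were lower in 3 of 7 cases, with PIP1C (-1.64) and DELTA-TIP (-1.34) the furthest.

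The largest platform-named falls were for genes that the tables used describe little. AT3G19850, annotated as an NPH3-family protein of phototropic response, had 4.47, 4.82 and 4.59 in P0 shoots, against 8.05, 8.01 and 7.93 in P1.25 shoots. Both groups were tight around a fall of 3.37. AT5G62360 had 3.09, 3.22 and 3.21 in P0 shoots, against 6.36, 6.11 and 6.32 in P1.25 shoots, a fall of 3.09. AT5G56100 (-3.44), AT5G16030 (-3.41) and AT5G19190 (-3.37) fell as far on average, with the third P1.25 array below the other 2 in each. BXL1, a cell wall xylosidase and arabinosidase gene, had 6.18, 6.32 and 6.27 in P0 shoots, against 10.62, 10.61 and 8.78 in P1.25 shoots, and fell by 3.74.

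**Figure D5:**
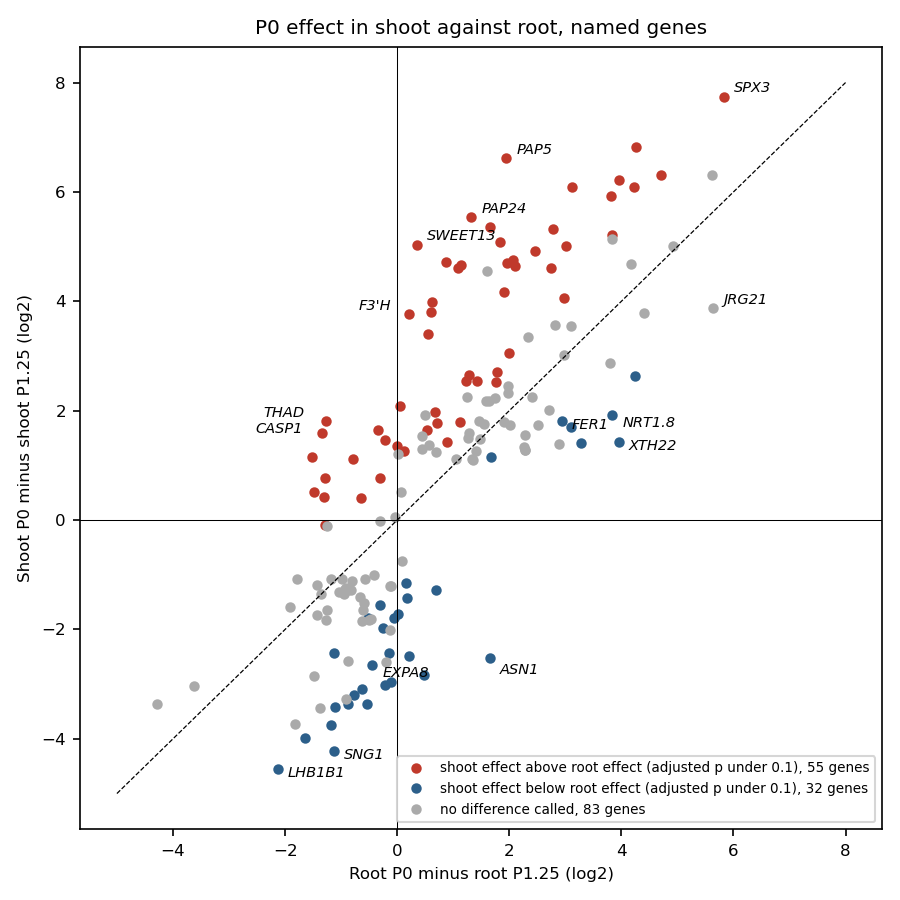
Difference of P0 minus P1.25 in shoot (log2, vertical axis) against the same difference in root (log2, horizontal axis) for the named genes, coloured by the test of shoot effect minus root effect, with a dashed line where both are equal. SWEET13, F3'H, PAP5 and PAP24 lie above the line, ASN1, SNG1 and XTH22 below it, and CASP1 and THAD to the upper left, where shoot rose and root was lower.

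Which of these changes were larger in shoot than in root was tested as an interaction in limma, shoot effect minus root effect, with an adjusted p under 0.1 at any fold. It was called for 6562 transcripts (17.1%), with the shoot effect above the root effect for 3449 and below it for 3113. SWEET13 changed by 5.04 in shoot and 0.35 in root (interaction 4.69, adjusted p = 1.48e-06). The anthocyanin genes were called above root in 7 of 8 cases, with F3'H at 3.77 in shoot and 0.21 in root (interaction 3.55). Among phosphatase genes 7 of 11 were above root, led by PAP5 (interaction 4.67) and PAP24 (4.22), with RNS1 at 3.71. PHT1;7 (3.25), PPCK2 (3.21) and PPCK1 (2.85) also rose more in shoot, and so did SPX3 (1.92). In root, SPX3 (5.82), PHT1;7 (1.84), PAP5 (1.95), PAP24 (1.32) and RNS1 (1.66) were also called higher, while PPCK2 (0.59) and PPCK1 (0.56) were not called.

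Other genes fell in shoot beyond root. The interaction was called for SNG1 (-3.09), PSAN (-2.28), EXPA8 (-2.19), ARR16 (-2.68), CHLM (-1.72) and SPCH (-1.74). By the interaction, chlorophyll synthesis was below root in 8 of 9 members, although only 7 of the 9 were called lower in shoot. Light harvesting was below root in 6 of 20. Of the named genes ASN1 had the most negative interaction, with a called fall of 2.51 in shoot and a difference of 1.65 in root that was not called (adjusted p = 0.157, interaction -4.16 with adjusted p = 0.025). EXPA1 was lower in shoot (-1.28) and at 0.70 in root, not called there. NRT1.8, FER1, VTL1, XTH22, XTH23 and ACS7 rose in shoot by less than in root, where they changed by 3.83, 2.93, 3.10, 3.95, 4.24 and 3.27. Of the hormone genes, GH3.5 was at 1.11 in shoot and -0.80 in root, the root difference being under 2-fold.

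Markers of root cells were checked in the same arrays. Of 11 root markers with a transcript, 5 were higher in P0 shoots and 0 lower, and 1 of the 5, PHT1;2 (3.03), is also a phosphate transporter. CASP1, a Casparian strip gene of the endodermis, had 7.91, 7.92 and 7.87 in P0 shoots, against 5.80, 6.41 and 6.72 in P1.25 shoots, and averaged 8.82 in P0 roots and 10.16 in P1.25 roots. THAD (1.803), CYP705A12 (1.64) and CYP71A16 (1.16) of root triterpene clusters were also higher in P0 shoots, and CYP71A16 was 0.95 without the first P1.25 array. CASP2 (0.78, adjusted p = 0.0188 in limma) and EXPA18 (0.76, adjusted p = 0.02) passed the p threshold but stayed under 2-fold. CASP4 (-0.08), EXPA7 (0.40), MRN1 (0.51) and NRT2.1 (-0.11) were not called either, and neither of the platform-named root markers was. The summed linear level of the 10 markers other than PHT1;2 was 694 to 699 in P0 shoots and 284 to 425 in P1.25 shoots, while P0 roots had 1184 to 1260 and P1.25 roots 2232 to 3418. The 20 light-harvesting and photosystem genes summed to 6412 to 6844 in P0 shoots and 12672 to 24704 in P1.25 shoots. The sums were 898.5 to 940 in P0 roots and 1115 to 1550 in P1.25 roots. For these genes all 6 shoot arrays stood above the root arrays, as labelled. The root-marker sum was nonetheless higher in P0 than in P1.25 shoots. An array has no true zero, so no marker can be said to be absent. The part of root-marker signal in the other rises was not tested.

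Values at P20 stand beside these for orientation only, since they are set against the same P1.25 arrays. Over 0, 1.25 and 20 mM, SPX1 averaged 11.29 ± 0.05, 7.74 ± 0.28 and 5.60 ± 0.27 in shoot (SD, n = 3 each). SNG1 averaged 3.95 ± 0.24, 8.17 ± 0.97 and 8.17 ± 0.94, and EXPA8 5.62 ± 0.05, 8.26 ± 0.05 and 8.00 ± 0.17. Of the named genes, SPX1 (-2.14), NDB4 (1.78) and XTH23 (1.77) were called at P20.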

How the data were processed

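RNA of 18 samples was read on 1-colour arrays, and the deposited log2 values had been made by the authors in Partek Genomics Suite 6.6 with RMA, which corrects background, quantile-normalizes and summarises probes. RMA draws all arrays to a common distribution, which can hide a shift shared by most genes, and arrays give no depth, so 3 arrays per group limit the precision. Replicates are independent experiments per the methods. The deposited values were used as given, with 38408 transcripts, of which 7132 share all values with another row. The study's own fold changes and p-values were not used, and only the annotation columns of its tables served for names.

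A model with a mean for each of 6 groups was fitted with limma 3.58.1 in R 4.3.3 (residual df 12, prior df 2.43) and tested on simulated data. Calls needed a Benjamini-Hochberg adjusted p under 0.1 over all transcripts and more than 2-fold. The interaction of organ and treatment needed an adjusted p under 0.1. An exact permutation of 3 against 3 arrays cannot go below 0.1 and was not used.

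The platform table gave 1 gene for 16722 transcripts, several for 759, and did not list 20927. The study's annotation named 1130 more. Where several transcripts carried 1 gene, the brightest on average over the 6 shoot arrays stood for it. Named are up to 12 of the largest platform-named rises and falls whose P0 and P1.25 arrays do not overlap. Up to 6 of each named only by the study follow. Each list gives up to 4 called members per direction, or the 2 with the smallest adjusted p where none was called. The markers of root and leaf are also named. The least and the most spread are given only among the called genes so described. AT1G13750, AT1G63010, PHF1, PHT3;2, PLDZ2, MYB62, WRKY45, CHS, EIN3, SWEET11, SWEET12, SWEET15, SWEET17, LHCB4.3, SBE2.2, BAM3 and AMY1 fall outside this naming rule and were added after their values were seen. Members, lists and genes were chosen with earlier results of these data known. Alternatives changed the scaling, the error model, the arrays fitted, the transcripts tested, the thresholds and the replicate block. Each P0 and P1.25 array of shoot and root was left out in turn, but no single P20 array was. Python 3.11.15 and matplotlib 3.10.9 drew the figures. No sequence was read, since no genome was used here.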

Additional observations from a re-analysis of the deposited data

Results flagged for a closer look

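The effect of P0 differed between shoot and root for 6562 transcripts by the interaction test in limma. Values below are the shoot effect minus the root effect on the log2 scale, all with an adjusted p under 0.1, for genes picked after their values were known. Above 0 were SWEET13 (4.69), PAP5 (4.67), PAP24 (4.22), RNS1 (3.71), PHT1;7 (3.25), PPCK2 (3.21), PPCK1 (2.85), SPX3 (1.92), F3'H (3.55), GSTF12 (3.53), 5MAT (3.36), GH3.5 (1.91) and NAS3 (1.37). The root markers THAD (3.07), CASP1 (2.93), CYP71A16 (2.68) and CYP705A12 (1.99) were also above 0.

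Below 0 were the photosynthesis and growth genes LHB1B1 (-2.42), PSAN (-2.28), CHLM (-1.72), SPCH (-1.74), EXPA8 (-2.19), EXPA1 (-1.98), ARR16 (-2.68) and IAA29 (-1.60), with SNG1 (-3.09) and ASN1 (-4.16). In root, SPCH changed by 0.02 and ARR16 by 0.21, neither of them called, while SNG1 changed by -1.13 and was called lower. Whether low levels in root limited a fall there was not tested. NRT1.8 (-1.91), FER1 (-1.12), VTL1 (-1.38), XTH22 (-2.53), XTH23 (-1.60) and ACS7 (-1.87) were below 0, with a larger rise in root than in shoot. Single samples were not screened as outliers in groups of 3.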

How the results depend on the processing

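Of the 159 called genes that the naming rule chose, 138 kept the call in all 14 refits and none turned its sign with a call. Besides those given above, calls were lost in at least 1 refit for AT1G47395, PAL2, LHCB2.3, WRKY6, NYE2, DPE1, WRKY40, XTH18, EXPB3, COR47, HSFA2, 2-CysPrxB and PIP3, while CASP2 gained a call without the second P1.25 array (1.01). Restricting the test to platform-named transcripts gave 1002 higher, 681 lower and 3304 interaction calls, by construction from fewer transcripts. At any fold 6188 were higher and 8388 lower. Array weights gave 11126 interaction calls, and the cause was not tested. Leaving out 1 P0 or P1.25 shoot array gave 2201 to 2639 higher, 2565 to 3402 lower and 5108 to 8021 interaction calls. The highest each time came without the third P1.25 shoot array. The share of rises was 44.5%, against 51.4% after quantile normalization within tissue (2616 higher, 2469 lower), 53.3% after median centring (2688 higher, 2354 lower) and 51.1% with identical rows counted once (2168 higher, 2071 lower). Replicate numbers did not pair P0 with P1.25 shoots (r = 0.001, -0.01 and 0.0042 between same-numbered deviations), but same-numbered P1.25 and P20 shoots, both in the fit, deviated together (r = 0.199, 0.163 and 0.36). With the replicate block, 2366 were higher, 2935 lower and 6976 called in the interaction, and no gene chosen by the rule lost its call. With 3 arrays per group and no depth, differences near 2-fold stand least firmly.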
